A study of Mus musculus with 2 samples.

Results

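The interferon-inducible GTPases of the guanylate-binding protein (GBP) and immunity-related GTPase (IRG) families were followed in a mouse T-ALL, an acute leukemia of T-cell precursors, in which the transcription factor Ikaros was restored. The group holds 10 genes of the 27179 in the deposited table, chosen by symbol: Gbp2, Gbp3, Gbp5, Gbp6, Gbp7, Gbp8, Gbp9, Igtp, Irgm1 and Iigp1. All 10 were found by Entrez identifier. The filter used throughout asked for 1 CPM (counts scaled to the library total) or more in either library, and all 10 reached it in both. Their levels in the same 2 libraries were known when they were chosen, so every fold below is a description and carries no test.

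Both libraries came from ALL211, 1 primary leukemia carrying Vav-tTA and TRE-GFP-shIkaros, sorted from spleens of leukemic recipient mice. In this system the Vav promoter, active in blood cells, drives a tetracycline-controlled transactivator, which in turn drives a hairpin against Ikaros together with GFP. Doxycycline (Dox) stops the hairpin. GFP-high cells made up the untreated library and GFP-mid cells, taken after 3 days of Dox, the other. Both carry the same transgenes and the same batch label, and they differ in drug, gate and animal. By the design text cells came from 2 mice in each condition, yet there is 1 sample for each (n = 1 library per group). Pooling, strain and age remain not given in the sources used here. With 1 library per group there is no replicate check and no p-value. All intervals are 95% intervals that cover counting error only.

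The untreated library held 16960042 counts and the Dox library 16484613. Ikzf1, the gene of the hairpin's target, had 2057 counts untreated and 20131 with Dox (log2 fold 3.35), the direction its labels give. All 12 markers of the T lineage exceeded 1 CPM in both libraries, and their summed level was 7571 CPM untreated and 10434 CPM with Dox. In bulk libraries a different number of cells of a type and a different amount of RNA per cell cannot be told apart.

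GBPs are large GTPases of the dynamin superfamily, and IRGs are smaller GTPases. Interferons induce both through gamma-activated sites (GAS) and interferon-stimulated response elements (ISRE), short promoter sequences of which the ISRE is bound by factors such as IRF1 and IRF9-containing complexes. The proteins are best known for cell-autonomous defence, in which they coat the vacuoles of intracellular bacteria and parasites. Within the IRG family, Irgm1 and Igtp (also called Irgm3) are regulatory members that sit on the cell's own membranes and hold effector members such as Iigp1 (also called Irga6) inactive. Gbp2 and Gbp5 end in a motif for lipid attachment, which serves membrane binding.

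Promoter windows from RefSeq on GRCm38.p6, 250 bases before to 50 after the annotated start site, were found for 6 of the 10 genes, Gbp2, Gbp3, Gbp5, Gbp7, Igtp and Irgm1. All 6 held the ISRE core (GAAA, any 2 bases, GAAA) on one strand or the other, which 3.44% of the 32851 windows of this length hold. The GAS core TTCNNNGAA, a palindrome, was in 3 of the 6 (Gbp5, Gbp7 and Igtp) against 8.30% of all windows. The Ikaros core TGGGAA was in 3 of the 6 (Gbp3, Gbp5 and Gbp7) against 25.6%. The ISRE and GAS cores do not overlap in the stretches shown, while the Ikaros core of Gbp3 overlaps an ISRE core and one of Gbp5 overlaps a GAS core farther upstream, outside the stretch. The stretches upstream of the start site are shown because they carry these matches. Each is written 5′ to 3′ on the strand of its gene with ISRE and GAS cores in capitals, and an ISRE core on the opposite strand reads TTTC, any 2 bases, TTTC.
Gbp2 (chr3:142620543-142620662, + strand): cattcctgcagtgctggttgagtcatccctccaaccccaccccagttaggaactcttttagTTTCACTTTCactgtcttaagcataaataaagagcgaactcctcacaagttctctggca
Gbp3 (chr3:142559924-142560043, + strand): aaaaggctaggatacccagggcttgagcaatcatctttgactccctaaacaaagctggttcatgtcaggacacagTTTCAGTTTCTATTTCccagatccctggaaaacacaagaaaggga
Gbp5 (chr3:142496754-142496933, + strand): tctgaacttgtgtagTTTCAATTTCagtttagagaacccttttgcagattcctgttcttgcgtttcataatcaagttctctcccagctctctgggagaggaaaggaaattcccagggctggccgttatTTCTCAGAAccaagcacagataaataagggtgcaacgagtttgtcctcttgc
Gbp7 (chr3:142530216-142530335, + strand): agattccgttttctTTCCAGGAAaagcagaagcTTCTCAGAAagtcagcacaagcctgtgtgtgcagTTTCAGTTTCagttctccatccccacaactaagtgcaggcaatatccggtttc
Igtp (chr11:58199436-58199555, + strand): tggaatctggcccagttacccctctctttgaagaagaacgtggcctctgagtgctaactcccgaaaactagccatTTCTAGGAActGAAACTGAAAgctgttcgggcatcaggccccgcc
Irgm1 (chr11:48871421-48871540, - strand): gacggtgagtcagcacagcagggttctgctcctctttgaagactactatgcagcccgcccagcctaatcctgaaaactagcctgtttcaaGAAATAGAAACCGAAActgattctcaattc

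The ISRE core nearest the start site began at position -59 in Gbp2, -39 in Gbp3, -53 in Gbp7, -34 in Igtp and -24 in Irgm1. In Gbp5 it lay farther out, at -165, with a GAS core at -52. Gbp3 and Irgm1 each held a pair of overlapping ISRE cores, and a further window listed for Gbp3 held no match. A match to these letters is a description of the window and not a measured binding site.

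A GAS core followed 11 bases later, start to start, by an ISRE core on the strand of the gene was present in 5 of the 32851 windows, and in 0 when read on the opposite strand. All 5 belonged to IRG genes on chromosome 11: Igtp of the 10 genes, and Irgm2, Tgtp1, Tgtp2 and Gm12185 of the wider family. This spacing was looked for after the Igtp window had been seen. It was taken from the windows of the family genes, as the only spacing there with the ISRE core on the gene strand. The 40 bases around both cores are shown to compare the 5 genes. The fixed letters of both cores match in all 5 because the windows were selected by them.
Igtp (chr11:58199502-58199541, + strand): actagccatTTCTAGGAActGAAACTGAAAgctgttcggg
Irgm2 (chr11:58214893-58214932, + strand): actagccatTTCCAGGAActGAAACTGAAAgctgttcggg
Tgtp1 (chr11:48992304-48992343, - strand): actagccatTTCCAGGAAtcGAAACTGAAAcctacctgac
Tgtp2 (chr11:49064263-49064302, - strand): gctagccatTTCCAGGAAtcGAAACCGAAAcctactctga
Gm12185 (chr11:48927238-48927277, - strand): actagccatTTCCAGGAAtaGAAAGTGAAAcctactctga
Igtp and Irgm2 shared 39 of the 40 bases and Tgtp2 and Gm12185 shared 36. The other pairs shared 33 or fewer, and the least alike, Igtp with Tgtp1 and Igtp with Tgtp2, shared 30. The genes are near relatives, so these windows are not independent of each other. In the Dox library the 5 genes were higher by log2 folds from 1.15 (Gm12185) to 2.85 (Tgtp1). Gm12185 had only 13 and 30 counts (interval 0.28 to 2.33). It passed the filter through the Dox library alone and so had to be higher.

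**Figure D1:**
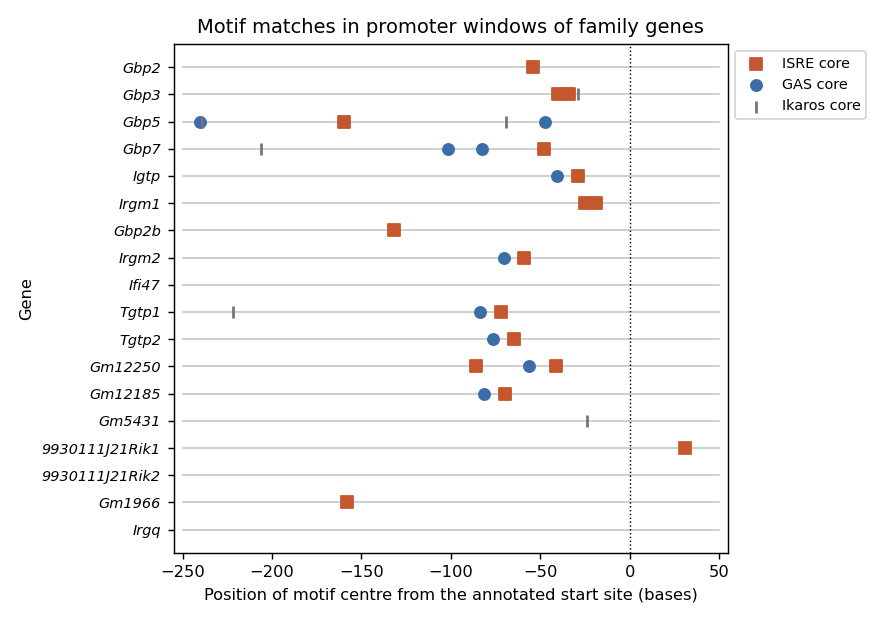
Positions of ISRE, GAS and Ikaros core matches in the promoter windows of the 18 GBP and IRG family genes with a window, in bases from the annotated start site (dotted line). Squares, circles and vertical strokes mark the centre of each match; the ISRE squares of Gbp2, Gbp3, Gbp7, Igtp and Irgm1 that lie nearest the start site begin between -59 and -24.

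All 10 genes were higher in the Dox library, as were 49.3% of the 12125 genes that passed the filter. For 9 of the 10 the difference was 2-fold or more, against 13.6% of all genes, while 13.0% of all genes were lower by 2-fold or more. The counting interval lay wholly above 2-fold for 9 of the 10, against 9.11% of all genes. A 4-fold difference was reached by 5 of the 10 (Gbp2, Gbp6, Gbp7, Gbp9 and Igtp), against 4.46%. Since the genes were chosen with these values known, nothing is read from these shares. Folds are given as log2 differences of CPM with a prior count of 2 added, and their median over the 10 genes was 1.92, against -0.01 over all genes. The summed level of the 10 genes was 304.2 CPM untreated and 1271 CPM with Dox. In the same libraries 18 macrophage markers summed to 104 and 430 CPM, and their part in these levels was not tested. Itgam, which T-lineage or leukemia cells also express, made up 60.6 and 181 CPM of these sums.

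Among the regulatory IRGs, Igtp (Entrez 16145; GRCm38 chromosome 11, 58199556 to 58207592) had 1231 counts in the untreated and 5681 in the Dox library. These are 72.1 and 347 CPM, a ratio of 4.81 (interval 4.52 to 5.12; log2 fold 2.26). Irgm1 (Entrez 15944; chromosome 11, 48865245 to 48871420) had 1374 and 3647 counts, 80.5 and 223 CPM, a ratio of 2.77 (2.60 to 2.95; log2 fold 1.47). The intervals of these 2 ratios do not overlap, so beyond counting error the fold of Igtp was the greater. Iigp1, the effector IRG on chromosome 18 (Entrez 60440), had 161 and 388 counts, 9.43 and 23.7 CPM, a ratio of 2.51 (2.09 to 3.04; log2 fold 1.32).

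The 4 GBP genes of the group on chromosome 3 ranged from a log2 fold of 0.93 to 2.28. Gbp7 (Entrez 229900; 142530336 to 142550151), which is known for antibacterial defence in macrophages, had 462 and 2160 counts, 27.1 and 132 CPM (log2 fold 2.28, interval 2.14 to 2.43). Gbp2 (Entrez 14469; 142620663 to 142638008), an effector against intracellular parasites, had 696 and 2866 counts, 40.8 and 175 CPM (2.10, 1.98 to 2.22). Both were thus more than 4-fold higher. Gbp3 (Entrez 55932; 142560016 to 142573213) started from the same 462 counts as Gbp7 but reached only 1089, from 27.1 to 66.5 CPM (1.29, 1.14 to 1.46). Gbp5 (Entrez 229898; 142496934 to 142522344), a GBP known for a role in inflammasome assembly, had 149 and 275 counts, 8.73 and 16.8 CPM (0.93, 0.65 to 1.24). It is the only one of the 10 genes below 2-fold, and its interval includes 2-fold.

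The 3 GBP genes of the group on chromosome 5 had a median log2 fold of 2.98, against 1.70 for the 4 on chromosome 3. Gbp6 (Entrez 100702; 105270702 to 105295871) had 178 and 1460 counts, 10.4 and 89.1 CPM (3.08, 2.87 to 3.33). Gbp9 (Entrez 236573; 105076464 to 105110357) had 385 and 2932 counts, 22.6 and 179 CPM (2.98, 2.83 to 3.15). Their ratios of 8.55 and 7.94 were the highest of the group and ranked 242 and 258 among all 12125 genes by log2 fold. Gbp8 (Entrez 76074; 105012513 to 105053609) had 95 and 311 counts, 5.57 and 19.0 CPM (1.75, 1.43 to 2.12). Its interval lies below those of Gbp6 and Gbp9, so the folds within this cluster differed by more than counting error.

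**Figure D2:**
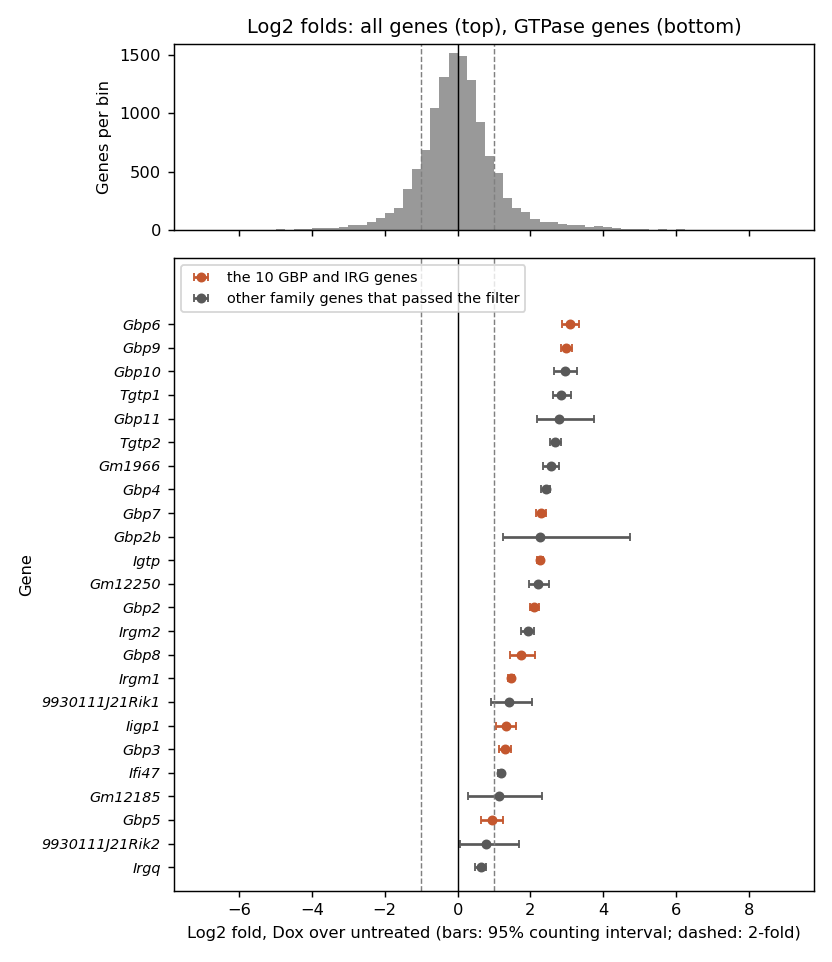
Top, histogram of the log2 fold (Dox over untreated) of the 12125 genes past the filter, in bins 0.25 wide. Bottom, log2 fold of the 10 genes (red) and of the 14 other family genes past the filter (grey) with 95% counting intervals; every point lies above 0, and Gbp5, 9930111J21Rik2 and Irgq lie below the 2-fold line at 1.

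Compared per kilobase of the deposited gene length (RPKM), the regulatory IRGs were the most abundant of the 10 genes in both libraries. In the untreated library Irgm1 was at 36.1 RPKM and Igtp at 35.6, and their counting intervals overlapped. Gbp2 followed at 16.6, Gbp3 at 10.3, Gbp9 at 6.21 and Gbp7 at 4.87, each apart from its neighbours in this order. The 4 lowest, Iigp1 (3.02), Gbp5 (2.89), Gbp6 (2.42) and Gbp8 (2.26), could not be ordered, since the interval of each overlapped that of the next. In the Dox library Igtp stood alone at the top with 171 RPKM, ahead of Irgm1 at 99.99, Gbp2 at 71.3 and Gbp9 at 49.3. Gbp3 (25.2) and Gbp7 (23.8) overlapped, Gbp6 followed at 20.7, Gbp8 (7.72) and Iigp1 (7.57) overlapped, and Gbp5 was lowest at 5.56.

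The order therefore differed between the libraries at several places. Igtp made up 29.6% of the summed RPKM of the 10 genes untreated and 35.5% with Dox, while Irgm1 made up 30.0% and 20.7%. Gbp9 went from 5.16% to 10.2% and Gbp6 from 2.01% to 4.28%. Among all genes past the filter, Igtp stood at percentile 76.6 of RPKM untreated and 96.1 with Dox, and Gbp6 at percentile 20.5 and 64.3. Gbp5 stayed low, at percentile 22.7 and 33.5.

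**Figure D3:**
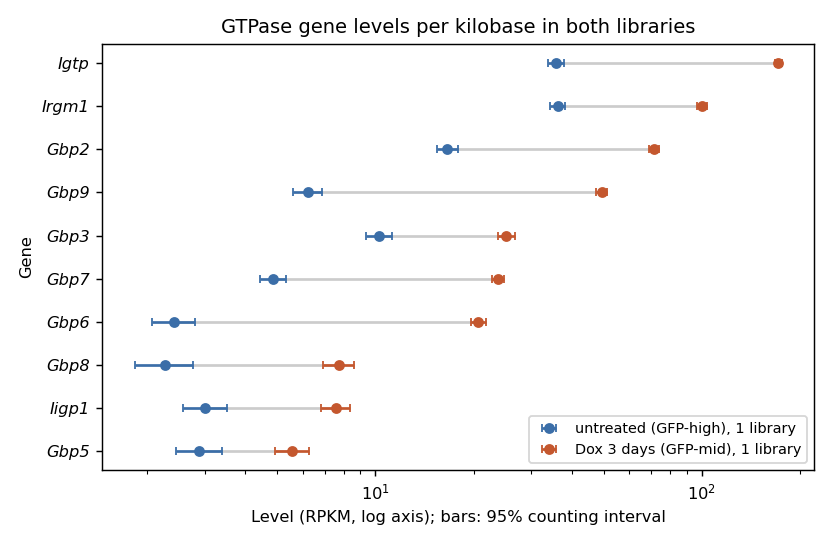
Level of each of the 10 genes in RPKM on a log axis, blue for the untreated and red for the Dox library (1 library each), with 95% counting intervals. Genes are ordered by their Dox level, from Igtp at 171 to Gbp5 at 5.56 RPKM, and every red point lies to the right of its blue point.

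Near-identical relatives can share reads, and the counting of reads with several alignments stays not given in the sources used here. In the GENCODE M21 transcripts, 64.5% of the 100-base stretches of Gbp6 also occur in another gene. Most of these are in Gm43302, a gene model that overlaps the Gbp10 and Gbp6 loci (59.0% of the stretches of Gbp6), or in Gbp10 (36.3%). Stretches shared with a model on the same locus can be the same bases, so they need not lie in a second place. The 36.3% shared with Gbp10 leave the level of Gbp6 uncertain, and Gbp10 had a log2 fold of 2.94 itself. For Gbp7, 562 of 5612 stretches were shared, mostly with Gm43802, a processed pseudogene inside its locus, which may likewise be the same bases. The share was 5.16% for Igtp (all with Irgm2), 4.39% for Gbp8, 1.65% for Gbp9, 0.694% for Gbp3 and 0.142% for Gbp5. No 100-base stretch of Gbp2, Irgm1 or Iigp1 occurred in another gene. At 50 bases more was shared: 70.7% for Gbp6, 18.1% for Gbp8, 12.7% for Gbp7, 11.8% for Igtp and 8.05% for Gbp9. The share at 50 bases was 3.75% for Gbp3, 2.03% for Gbp2, 1.69% for Iigp1, 1.44% for Gbp5 and 0.310% for Irgm1. Gbp2 and Irgm1, whose sequence was their own at 100 bases, differed in ratio (4.29 against 2.77) beyond their counting intervals.

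Most other genes of these families that reached 1 CPM in both libraries were higher with Dox too. Of 20 further GTPase genes listed, 14 passed the filter. Of these, 12 were 2-fold or more higher and 0 as much lower, against 13.6% and 13.0% of all genes. Gbp2b, Gbp11 and Gm12185 passed through the Dox library alone and had to be higher. Of the 11 that reached 1 CPM in both libraries, 9 were 2-fold or more higher, with a median log2 fold of 2.21. In the chromosome 5 cluster Gbp4 had 642 and 3300 counts (log2 fold 2.42), Gbp10 97 and 726 (2.94) and Gbp11, annotated as a transcribed pseudogene, 17 and 123 (2.77). On chromosome 3, Gbp2b had 4 and 26 counts (2.27, interval 1.23 to 4.74). Gbp2b was thus almost absent while Gbp2, its neighbour, was well expressed.

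Among the further IRG genes on chromosome 11, Tgtp1 and Tgtp2, near-identical copies that may share reads, had log2 folds of 2.85 and 2.68. Gm12250 (also called Irgb10), an effector IRG, had 2.21 and Irgm2, a regulatory IRG, 1.92. Ifi47 (also called Irgd) was the most abundant, at 87.4 RPKM untreated and 199 RPKM with Dox, yet its log2 fold was only 1.19. Gm12185 had 13 and 30 counts (1.15, 0.28 to 2.33), 9930111J21Rik1 39 and 103 counts (1.41) and 9930111J21Rik2 22 and 38 counts (0.79, 0.05 to 1.68). Of the large inducible GTPases, Gm1966 had 199 and 1129 counts (2.55). Irgq, a family relative, was at 606 and 901 counts (0.63). The remaining 6 genes (Gm4951, F830016B08Rik, Gm5431, Gvin1, Gm4070 and Irgc1) stayed below 1 CPM, and Gm4951 and F830016B08Rik, both in the chromosome 18 cluster with Iigp1, had 0 counts in either library. A count of 0 allows up to 0.176 CPM untreated and 0.183 CPM with Dox (3 counts of the library, a one-sided limit and so narrower than the upper end of the intervals). Iigp1 was therefore the only one of the 3 listed genes of its cluster that was detected.

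Dynamin superfamily relatives that interferon is not known to induce served as a comparison. Of 8 that passed the filter, 1 was 2-fold or more higher, near the 13.6% of all genes, and their median was -0.15. The exception was Dnm2, a scission GTPase of endocytosis, with 191 and 396 CPM (log2 fold 1.05), while its relative Dnm3 had 0.44. Atl2, an atlastin that shapes the endoplasmic reticulum and is a near relative of the GBPs in structure, had -0.30, and Mfn1, which fuses mitochondria, -0.36. None of the 10 relatives held an ISRE or a GAS core in its promoter window. Since only 3.44% and 8.30% of all windows hold these cores, 0 of 10 is near the share over all windows.

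Most genes beside the GTPase clusters lay within 2-fold, as did most of all genes past the filter. For the 5 clusters that hold the 10 genes, the 3 nearest genes past the filter on each side were taken, 30 in all. Of these, 2 were higher and 4 lower by 2-fold or more (median log2 fold 0.16). Over all genes 13.6% were higher and 13.0% lower by as much, so nothing is read from the counts of neighbours. Among the 22 family genes of these clusters past the filter, 20 were higher and 0 lower by 2-fold or more. Of the 19 cluster genes of the families that reached 1 CPM in both libraries, 17 were higher by 2-fold or more (median 2.10). At the chromosome 3 cluster Kyat3, a kynurenine aminotransferase gene and the nearest beyond Gbp2, had -1.34 and Pdlim5, on the side of Gbp5, 0.62. At the chromosome 5 cluster the 6 neighbours ranged from -0.08 (Lrrc8d) to 0.75 (Abcg3), while all 6 family genes there were at least 2-fold higher. At the first chromosome 11 cluster Trim7, next to Irgm1, had -1.40, and Olfr56, beyond Ifi47, had 16 and 43 counts (1.38), passing the filter through the Dox library alone. At the second, the 6 neighbours of Gm12250, Igtp and Irgm2 ranged from -0.85 (Zfp692) to 0.57 (Sh3bp5l). Beside Iigp1, Smim3 had 20 and 2 counts (-2.42) and Prrc1, far outside the cluster, 18 and 85 counts (2.18). Smim3 passed the filter through the untreated library alone and so had to be lower.

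**Figure D4:**
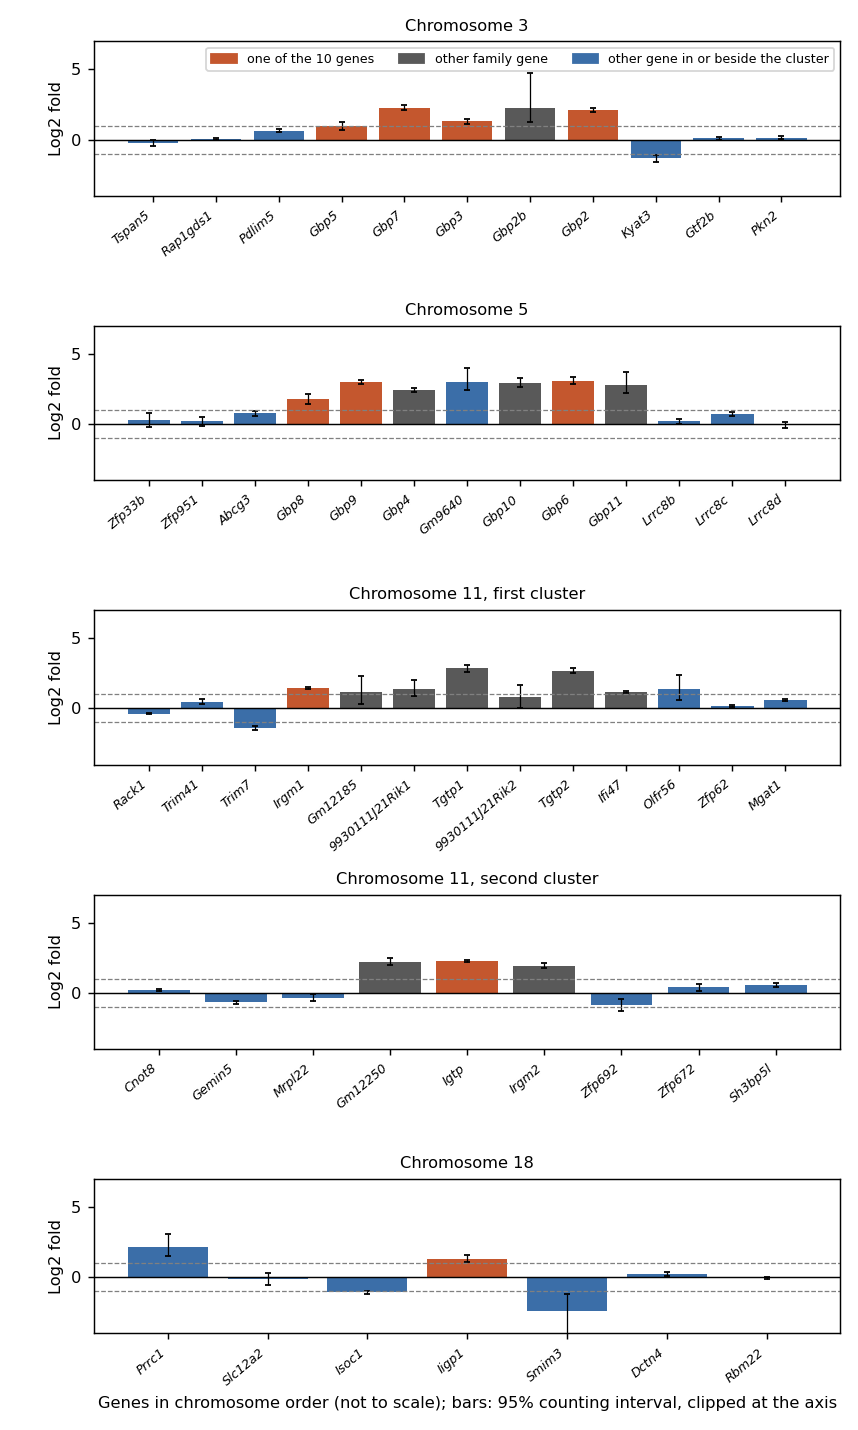
Log2 fold (Dox over untreated) of genes in chromosome order in and beside the 5 gene clusters, with the 10 genes in red, other family genes in grey and further genes in blue; error bars are 95% counting intervals. Bars of family genes stand between 0.79 and 3.08, and 24 of the 30 genes outside the clusters lie between -1 and 1.

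The pathway that induces these GTPases was expressed in both libraries, while interferon gamma itself was not detected. Of 11 interferon gamma signalling genes past the filter, 6 were 2-fold or more higher and 0 were as much lower. Over all genes these shares were 13.6% and 13.0%. The median log2 fold of the 11 was 1.21 (all genes -0.01). The ligand gene Ifng had 0 counts in both libraries. Of the receptor chains, Ifngr1 had 78.0 and 142 CPM (0.87) and Ifngr2 23.7 and 27.6 CPM (0.22). The receptor-bound kinases Jak1 (443 and 1085 CPM) and Jak2 (69.8 and 233 CPM) had log2 folds of 1.29 and 1.73. Irf1, an interferon-induced activator, had 1.25 and Irf8, a related factor typical of myeloid and B cells, 67 and 507 counts (2.94). These receptor chains thus differed less than the kinases, Irf1 and Irf8.

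Type I interferon can induce the same GTPases. Of 8 signalling genes past the filter, 5 exceeded 2-fold upward and 0 downward, with a median of 1.27. Over all genes these shares were 13.6% and 13.0%. The counting interval lay wholly above 2-fold for 4 of the 8, against 9.11% of all genes, and that of Stat2 (0.93 to 1.23) includes 2-fold. The receptor chain Ifnar1 had 114 and 315 CPM (1.46), Stat2 32.0 and 67.7 CPM (1.08), Irf9, a DNA-binding factor of the interferon response, 58.5 and 197 CPM (1.75) and Irf7, an amplifier of type I interferon, 27.7 and 238 CPM (3.10). Usp18, a brake on the receptor, had 2.55. Ifnb1 had 0 counts in both libraries. Of 21 interferon ligand genes in the table, collected after the values were seen, 19 had 0 counts untreated and 20 with Dox, and the most were 4 counts (Ifnz, untreated) and 1 count (Ifna14, Dox).

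Most other genes known for induction by either interferon were higher as well, to different degrees. Of 16 antiviral genes of the type I list, 13 were at least 2-fold higher (median 2.45), among them Ifit3 (4.76, with reads that a near-identical copy can share), Ifit1 (3.91), Rsad2 (3.90) and Mx1 (3.64, annotated as a transcribed pseudogene in the reference). Of 11 genes of the interferon gamma list past the filter, 8 were (median 1.41), against 13.6% of all genes. Nlrc5, the class I transactivator, had 81 and 618 counts (2.96), Ciita, the class II transactivator, 4 and 185, Serpina3g 2 and 45, and Cxcl9 0 and 18. Psmb8 (0.20), Psmb9 (0.34) and Psmb10 (0.51) lay within 2-fold, and Ido1 and Batf2 had 0 counts in both libraries. With Cxcl10 (7 and 22 counts), Ciita, Serpina3g and Cxcl9 passed the filter through the Dox library alone, so these 4 had to be higher. Of the 7 that reached 1 CPM in both libraries, 4 were at least 2-fold higher. The interferon gamma list summed to 845 CPM untreated and 1194 CPM with Dox.

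Genes that GBPs and IRGs work with were measured too. IRG and GBP targeting to vacuoles requires the ATG8 conjugation machinery. Of its 12 genes past the filter, 3 were at least 2-fold higher, against 13.6% of all genes. These were Map1lc3b (73.3 and 178 CPM, 1.28), Map1lc3a (1.13) and Gabarapl2 (1.002). The counting interval lay wholly above 2-fold for 1 of the 12, Map1lc3b, against 9.11% of all genes. Gabarap had 0.89, while Atg5, part of the conjugating enzyme, had -0.29. These ATG8 genes thus had larger log2 folds than Atg5, and Gabarapl1, a further one, had only 0 and 2 counts. All 6 enzymes of prenylation and CaaX processing, which serve the lipid attachment of Gbp2 and Gbp5, lay within 2-fold (median 0.02). They ranged from Rce1 (-0.51) to Fnta (0.21), with Fntb at 0.19 and Zmpste24 at -0.36.

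Of 8 inflammasome genes past the filter, 5 were 2-fold or more higher and 0 were as much lower (median 1.61). Over all genes these shares were 13.6% and 13.0%. Of the 5 inflammasome genes that reached 1 CPM in both libraries, 2 were at least 2-fold higher. Zbp1, a sensor of Z-form nucleic acid, had 41.8 and 355 CPM (3.08), and Aim2, a DNA sensor whose activation by bacteria GBPs promote, 46 and 137 counts (1.59). Gsdmd, which forms the pores of pyroptosis, had 28.1 and 42.3 CPM (0.59). Casp1 had 1 and 28 counts, Naip5 0 and 25, Nlrc4 6 and 22, and Casp4, the sensor of bacterial lipopolysaccharide that works with GBPs, 0 and 8 counts. Casp1, Naip5 and Nlrc4 passed the filter through the Dox library alone and so had to be higher, and both caspase genes stayed below 2 CPM.

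**Figure D5:**
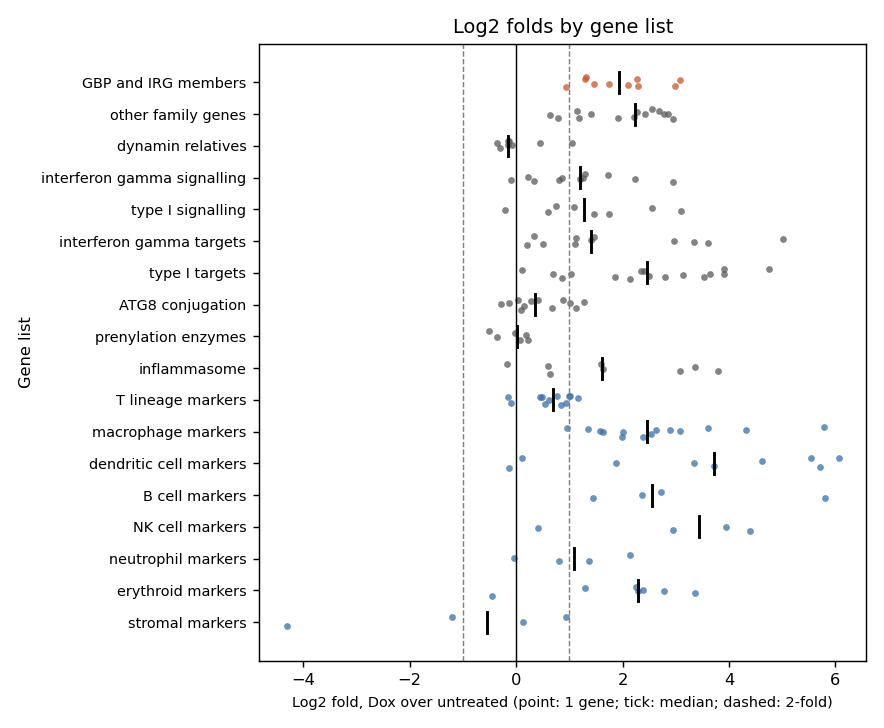
Log2 fold (Dox over untreated) of every gene past the filter in each of the 18 gene lists, 1 point per gene, with black ticks at the medians. The 10 GBP and IRG genes (red) have a median of 1.92 and the type I targets 2.45, the prenylation enzymes and dynamin relatives lie around 0, and the macrophage and dendritic cell marker lists lie at medians of 2.45 and 3.72, with 6 of 14 and 6 of 9 genes past the filter through the Dox library alone.

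Macrophages and dendritic cells also express these GTPases, and most of their markers were higher in the same library. Of 18 macrophage markers, 14 passed the filter. Of these, 13 were at least 2-fold higher, against 13.6% of all genes, but 6 passed through the Dox library alone and had to be higher. Of the 8 that reached 1 CPM in both libraries, 7 were at least 2-fold higher. The list's summed level was 104 CPM untreated, mostly from Itgam (60.6 CPM), Hmox1 (15.5) and Ly6c2 (14.2). With Dox it was 430 CPM, mostly from Itgam (181 CPM), Mpeg1 (96.8, from 1.64 untreated) and Ly6c2 (44.3), with Hmox1 at 30.1. Itgam is also expressed by T-lineage or leukemia cells, so these sums do not measure macrophages alone. Tyrobp had 8 and 191 counts, Cd14, Mertk and Marco were at 0 counts untreated, and Marco was at 0 also with Dox. Of 11 dendritic cell markers, 9 passed and 7 were at least 2-fold higher, but 6 passed through the Dox library alone. Of the 3 that reached 1 CPM in both libraries, 1 was at least 2-fold higher. The list summed to 626 and 2040 CPM. That sum came mostly from Ccr9 (507 and 1865 CPM) and Bst2 (113 and 122 CPM), which T-lineage cells also express. Clec9a (0 and 129 counts), Siglech (0 and 101), Zbtb46 (0 and 18), Cd209a (0 and 16) and Batf3 (0 and 11) were at 0 counts in the untreated library. The other 4 of the list were detected there, Tcf4 (84 and 73 counts), Flt3 (12 and 176), Xcr1 (5 and 165) and Itgax (2 and 179). The part of macrophages or dendritic cells in the GTPase levels of either library was not tested.

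Markers of B cells, natural killer cells and erythroid cells were also higher with Dox in most cases. Over all genes past the filter 13.6% were at least 2-fold higher. Of 10 B-cell markers 4 passed, all at least 2-fold higher, though 3 of them (Ighd, Igkc and Blnk) passed through the Dox library alone and had to be. Their sums of 348 and 963 CPM were set by Ighm (346 and 948 CPM). Ighd had 9 and 68 counts and Igkc 0 and 107, Pax5 was at 0 in both libraries, and Ms4a1 was at 0 untreated. Of 10 natural killer markers 4 passed, and the 3 that were at least 2-fold higher passed through the Dox library alone. Their sums of 2117 and 2805 CPM came almost wholly from Gzma (2116 and 2798 CPM), while Prf1 (0 and 39 counts), Klrk1 (0 and 28), Ncr1 and Klra8 were at 0 untreated and Klre1 and Gzmb at 0 in both. Neutrophil markers summed to 4.98 and 9.83 CPM. The 2 of 4 past the filter that were at least 2-fold higher, Ngp (6 and 32 counts) and Camp (6 and 18), passed through the Dox library alone, and S100a9 had 36 and 62 counts and S100a8 28 and 26. Erythroid markers summed to 10.02 and 60.3 CPM, and 6 of 7 were at least 2-fold higher, 3 of which passed through the Dox library alone. Hba-a2 had 49 and 332 counts and Hba-a1 26 and 276. Of 4 stromal markers 0 were at least 2-fold higher and 2 lower, Col1a2 (76.4 and 32.9 CPM) and Pdgfrb (80 and 2 counts), with Pecam1 at 166 and 317 CPM. Pdgfrb passed the filter through the untreated library alone and so had to be lower. The part of these cell types in the GTPase levels was not tested either.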

How the data were processed

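RNA sequencing of sorted leukemia cells gave 1 library per condition. The authors deposited unnormalised counts of reads for each Entrez gene, with a gene length that served only for RPKM here. CASAVA 1.8.2, featureCounts and build mm10 are named, per the submitters' processing notes. Aligner, strand setting, annotation and treatment of reads with several alignments remain not given in the sources used here. For the counts, the table of the whole series matched the separate sample tables (0 of 27179 genes differed), 0 columns lacked a sample, and 25275 genes received a RefSeq symbol (GRCm38.p6).

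Counts were scaled with TMM factors (edgeR 4.0.16, R 4.3.3). For log2 folds a prior count of 2 was added before taking log2 CPM, while ratios and CPM carry none. The filter asked for 1 CPM or more in either library (12125 genes). Ratios have exact Clopper-Pearson 95% intervals and levels exact Poisson 95% intervals. Both cover counting error only and treat reads as independent, which PCR copies are not. A replicated edgeR test could not be run with 1 library per group. The calculation was tested on simulated counts. The members, gene lists and motifs were chosen with earlier results of these data known. Named are the members, every other family gene past the filter, up to 4 genes per pathway list with the largest absolute log2 fold plus a fixed set of pathway genes, the 2 most abundant and 2 most different genes per marker list, and, of the neighbours of the gene clusters, the 3 nearest genes past the filter on each side. Genes named beyond these rules, such as marker genes at 0 counts, were chosen after their values were seen. With 2 libraries no likeness between gene patterns could be computed. Alternatives were other scalings (total count, DESeq2 1.42.0 median of ratios, upper quartile), prior counts, filters, thinning, totals without markers of other cell types, the counting interval and a 4-fold threshold. Intervals came from scipy 1.17.1, tables from pandas 2.3.3 with numpy 2.4.6 and figures from matplotlib 3.10.9, in Python 3.11.15. Some listed genes are counted in their lists but not reported singly here.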

Additional observations from a re-analysis of the deposited data

How the results depend on the processing

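The log2 fold of every one of the 10 genes stayed positive and inside its counting interval under every other scaling, prior count, thinning and total tried, shifting by at most 0.03 (the 2 other filters cannot move a fold). Scaling, prior count, filters, thinning and totals without markers of other cell types left 9 of the 10 genes at least 2-fold higher, as did the demand that the counting interval lie wholly above 2-fold. At a 4-fold threshold 5 of the 10 genes, 2 interferon gamma signalling genes, 2 type I signalling genes and 541 genes in all were higher and 372 lower. A filter of at least 1 count in 1 library gave 2993 genes at least 2-fold higher, since more low genes entered, and one of at least 5 CPM gave 1091. With the interval wholly beyond 2-fold 1016 genes were lower. No paired analysis was possible because each group has 1 library and the labels carry no replicate numbers. Without replicates no setting addresses differences between mice or sorting gates, and drug, gate and animal cannot be told apart.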

Other observations

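Across all genes past the filter with a promoter window, 361 held an ISRE core, and 28.8% of these were at least 2-fold higher with Dox and 9.70% at least 2-fold lower. Among the 8944 without one, 12.8% were at least 2-fold higher and 13.1% lower. Among the 361 are 6 of the 10 GTPase genes and 8 other genes of their families. For the GAS core 15.6% with it and 13.3% without it were at least 2-fold higher, and 12.6% and 13.0% at least 2-fold lower. For the Ikaros core 13.5% with it and 13.5% without it were at least 2-fold higher, and 14.3% and 12.5% at least 2-fold lower. These shares describe 2 libraries and were not tested.

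Gm9640, annotated as a pseudogene, lies inside the chromosome 5 cluster between Gbp4 and Gbp10. It had 17 and 144 counts (log2 fold 3.00, interval 2.41 to 3.96), beside 17 and 123 counts for Gbp11. Gm9640 and Gbp11 both passed the filter through the Dox library alone and so had to be higher. Gm9640 was picked out after its values were seen.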
